A study of Mus musculus with 6 samples.

Results

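The cytosolic ribosomal protein genes encode the proteins of the large (60S) and small (40S) subunits of the cytoplasmic ribosome. Members were taken by gene name from the deposited count table: Rpl or Rps followed by a number and its usual suffixes, the stalk genes Rplp0, Rplp1 and Rplp2, and Rpsa. Names of pseudogenes and of mitochondrial ribosomal proteins (Mrpl, Mrps) do not match. This gave 90 of the 57180 genes in the table, 54 of the large and 36 of the small subunit. The filter on low counts kept 83 of them for testing, 49 of the large and 34 of the small subunit. The members were compared between wild-type mouse bone marrow-derived macrophages treated for 24 h with IL-4 (20 ng/mL), which turns macrophages to the alternatively activated state, and the same kind of cells given CGRP, a neuropeptide of sensory nerves, beside IL-4. In both groups the marrow came from mice aged 6 to 8 weeks and had first been cultured for 7 days, with M-CSF at 20 ng/mL, and each group has 3 libraries. Neither group lacks IL-4, so CGRP was measured only on top of IL-4.

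A ribosome holds 1 copy of nearly every ribosomal protein, and the genes of the family are known to be expressed in a coordinated way. Many of these mRNAs start with a C followed by a run of pyrimidines, the terminal oligopyrimidine (TOP) tract, through which mTORC1 and its effector LARP1 control their translation and stability. In macrophages, as in other cells, ribosomal protein mRNAs are among the most abundant transcripts, and most are short.

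The bases around the transcription start are shown for 6 members: Rps6 and Rpsa, whose lower level with IL-4+CGRP passed the test, Rpl35 and Rpl35a, which have a start tract, and Rps3a1 and Rps27l, which have an ETS-type CCGGAAG match near the start. Each window runs from 40 bases before the annotated start through its first 20 transcribed bases, 5′ to 3′ on the gene's strand. The sequences are from RefSeq on mouse build GRCm38.p6, which differs from the GRCm39 build of the counts and serves here only for display. Capitals mark a start tract in Rps6, Rpl35 and Rpl35a, and CCGGAAG in Rps3a1 and Rps27l. Rpsa has neither in the window shown. In the longer window of 300 bases described below, Rpsa, Rps6 and Rpl35 each have 1 CCGGAAG match. Rpl35a has 3 annotated starts, of which 1 has a tract, and Rps27l has 2, of which 1 has CCGGAAG in its window.
Rps6 (chr4:86857348-86857407, minus strand): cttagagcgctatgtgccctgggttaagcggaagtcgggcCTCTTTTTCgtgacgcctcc
Rpsa (chr9:120127726-120127785, plus strand): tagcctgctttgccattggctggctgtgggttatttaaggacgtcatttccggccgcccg
Rpl35 (chr2:39005112-39005171, minus strand): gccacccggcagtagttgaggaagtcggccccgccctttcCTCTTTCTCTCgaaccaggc
Rpl35a (chr16:33056442-33056501, plus strand): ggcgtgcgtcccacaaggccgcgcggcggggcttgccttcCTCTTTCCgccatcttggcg
Rps3a1 (chr3:86142649-86142708, minus strand): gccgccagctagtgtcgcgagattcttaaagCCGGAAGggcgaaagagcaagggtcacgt
Rps27l (chr9:66946046-66946105, plus strand): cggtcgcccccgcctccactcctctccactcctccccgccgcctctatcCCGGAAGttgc

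RefSeq start windows of 300 bases (250 before the start and 50 after it) were matched by symbol for 65 of the 90 members. A start tract, searched on the gene's strand as a C at the annotated start followed by at least 4 bases that are each C or T, was found at an annotated start of 14 of these 65 members (21.5%), against 813 of 27025 genes in the table (3.01%). CCGGAAG on either strand of the window was found in 26 members (40%), against 2683 genes (9.93%). A start tract can share bases with CTTCCGG, the reverse complement. An annotated start can lie some bases from the start in use, so a window without a tract says only that these letters are not at that base. The tested members with and without a start tract had like fold changes, with a median log2 fold change of -0.27 in 13 and of -0.24 in 48. Those with and without CCGGAAG had medians of -0.26 in 25 and -0.24 in 36.

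Totals were 20088895 to 24060444 counts per library. Since the labels do not state whether the 3 replicates of a group are separate cultures or mice, p-values here reflect only how far these libraries spread, and that spread may be technical. Macrophage markers were present in every library: 10 of 10 markers were detected and summed to 14340 to 14550 CPM (counts scaled to the library total) with IL-4 and 14510 to 14910 CPM with IL-4+CGRP, while markers of other cells summed to less. T and NK cell markers summed to at most 13.3 CPM, B cell markers to 93.0, neutrophil markers to 45.9, mast cell and basophil markers to 6.05, fibroblast markers to 59.4 and erythroid markers to 0.586 CPM, with 2 of 7 erythroid markers and Ly6g of the neutrophil list at 0 counts in every library. The libraries did not divide by treatment alone. IL-4 replicate 1 and IL-4+CGRP replicate 2 stood apart from the other libraries in the levels of short genes. Most members are short, and the same 2 libraries were the highest of their groups for nearly every tested member. Results on the members are therefore to be read beside this pattern. Among the 172 tested genes under 500 bases that are not members, the median log2 deviation from the mean of the 6 libraries was 0.25 in IL-4 replicate 1 and 0.34 in IL-4+CGRP replicate 2, and lay between -0.18 and -0.04 in the other 4 libraries. Dendritic cell markers summed to 564 to 757 CPM with IL-4 and 521 to 786 CPM with IL-4+CGRP, and were highest in the same 2 libraries. Nearly all of that sum was Bst2, an interferon-induced gene of 792 bases that macrophages also express, while Xcr1, Clec9a and Flt3 were at most 1.55 CPM. Of the tested markers, 4 were called by edgeR. Cd14, a co-receptor for lipopolysaccharide, was at 23.6, 23.7 and 27.1 CPM with IL-4 and 38.1, 37.3 and 38.3 CPM with IL-4+CGRP (log2 fold change 0.61 ± 0.073 SE, adjusted p = 0.000591 by edgeR). Itgam, which encodes the integrin CD11b, was at 411, 411 and 428 CPM against 565, 511 and 587 CPM (0.41 ± 0.054 SE, adjusted p = 0.00122 by edgeR). Of the dendritic cell list, the chemokine receptor gene Ccr7 was at 21.4, 18.2 and 20.1 CPM against 27.1, 28.4 and 27.1 CPM (0.47 ± 0.081 SE, adjusted p = 0.00678 by edgeR, and 0.0514 without IL-4 replicate 2). Siglech, a lectin gene of plasmacytoid dendritic cells, was at 1.52, 1.92 and 2.50 CPM against 0.371, 0.597 and 0.946 CPM (-1.64 ± 0.35 SE, adjusted p = 0.0224 by edgeR). Its call ended without replicate 2 or 3 of IL-4 or replicate 1 of IL-4+CGRP (0.0993 to 0.132). The first 3 rose and Siglech fell, each with no overlap between the groups. The labels name no batch, and whether a batch, or a library under another's label, plays a part was not tested. Results are given with and without this pair.

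The ribosomal protein mRNAs moved as a block from library to library, and the range within each group was wider than the difference between the group means. With IL-4, replicates 1 to 3 had 1.85%, 1.51% and 1.52% of all counts in these genes, and with IL-4+CGRP the same numbers had 1.26%, 1.71% and 1.22%. The groups overlapped, because IL-4+CGRP replicate 2 lay above IL-4 replicates 2 and 3. The mean was 1.63% ± 0.19 (SD, n = 3) with IL-4 and 1.40% ± 0.27 (SD, n = 3) with IL-4+CGRP. The large subunit went from 0.957% ± 0.107 to 0.832% ± 0.156 and the small subunit from 0.670% ± 0.0824 to 0.564% ± 0.116 (SD, n = 3 each). On the scale per length, the members' share was 4.93%, 4.08% and 4.16% with IL-4, and 3.504%, 4.61% and 3.42% with IL-4+CGRP, in the same order of libraries. Bulk libraries cannot tell fewer cells of a type from less RNA per cell.

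**Figure D1:**
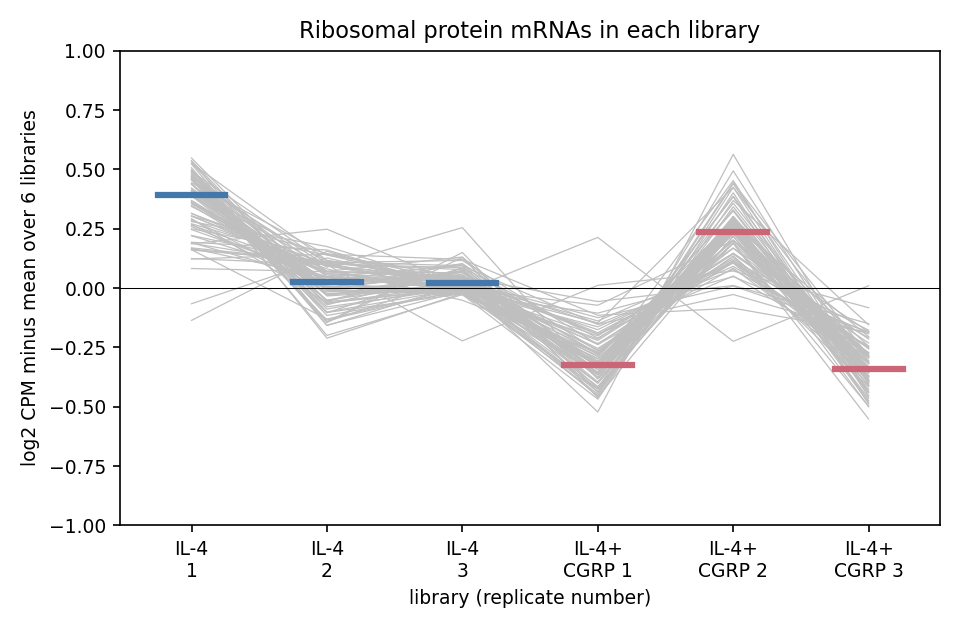
Each grey line is 1 of 82 ribosomal protein genes with counts in every library, as log2 CPM minus its mean over the 6 libraries (y axis) in each library (x axis), and bars mark the median of each library. The median is 0.39 in IL-4 replicate 1 and 0.24 in IL-4+CGRP replicate 2, near 0 in IL-4 replicates 2 and 3, and -0.32 and -0.34 in IL-4+CGRP replicates 1 and 3.

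Among the tested members, the order of the libraries was nearly always the same. IL-4 replicate 1 was the highest IL-4 library for 79 of 83 tested members (95.2%, against 37.4% of all tested genes), the exceptions being Rps6, Rpl5, Rps4l and Rpl10. IL-4+CGRP replicate 2 was the highest of its group for 82 (98.8%, against 38.5%), all but Rpl10. IL-4+CGRP replicates 1 and 3 both lay below every IL-4 library for 79 members (95.2%, against 23.6%), all but Rpl36, Rps12l1, Rps13 and Rpl10. IL-4+CGRP replicate 2 lay above the lowest IL-4 library for 77 members (92.8%, against 70.8%). The groups as a whole separated for 5 members, Rps6, Rpsa, Rpl4, Rps4x and Rpl7l1, each lower with IL-4+CGRP (6.02%, against 9.90% of all tested genes), and 0 members were higher in every IL-4+CGRP library (against 11.1%).

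Against IL-4, 80 of 83 tested members had a log2 fold change below 0 with IL-4+CGRP (96.4%, against 50.8% of all tested genes), but 2 passed the test. These were Rps6 and Rpsa, both lower. By edgeR's quasi-likelihood test, adjusted by Benjamini-Hochberg across the 13260 genes tested, with a threshold of 0.05, 1.54% of all tested genes were called lower and 2.32% higher, and 2.41% of the members were called lower and 0% higher. At an unadjusted p under 0.05 there were 11 members (13.3%), all lower, against 7.21% of all tested genes lower and 8.61% higher. DESeq2 called 4 members lower (against 1.37% of all tested genes) and 0 higher (against 2.1%), and limma-voom called 2 lower (against 1.52%) and 0 higher (against 2.21%). The members' median log2 fold change was -0.25, with the middle of the distribution from -0.30 to -0.21, against a median of -0.004 over all tested genes. It was -0.23 in the large subunit (0 of 49 called) and -0.26 in the small subunit (2 of 34 called). The members' median SE was 0.22, against 0.098 over all tested genes.

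**Figure D2:**
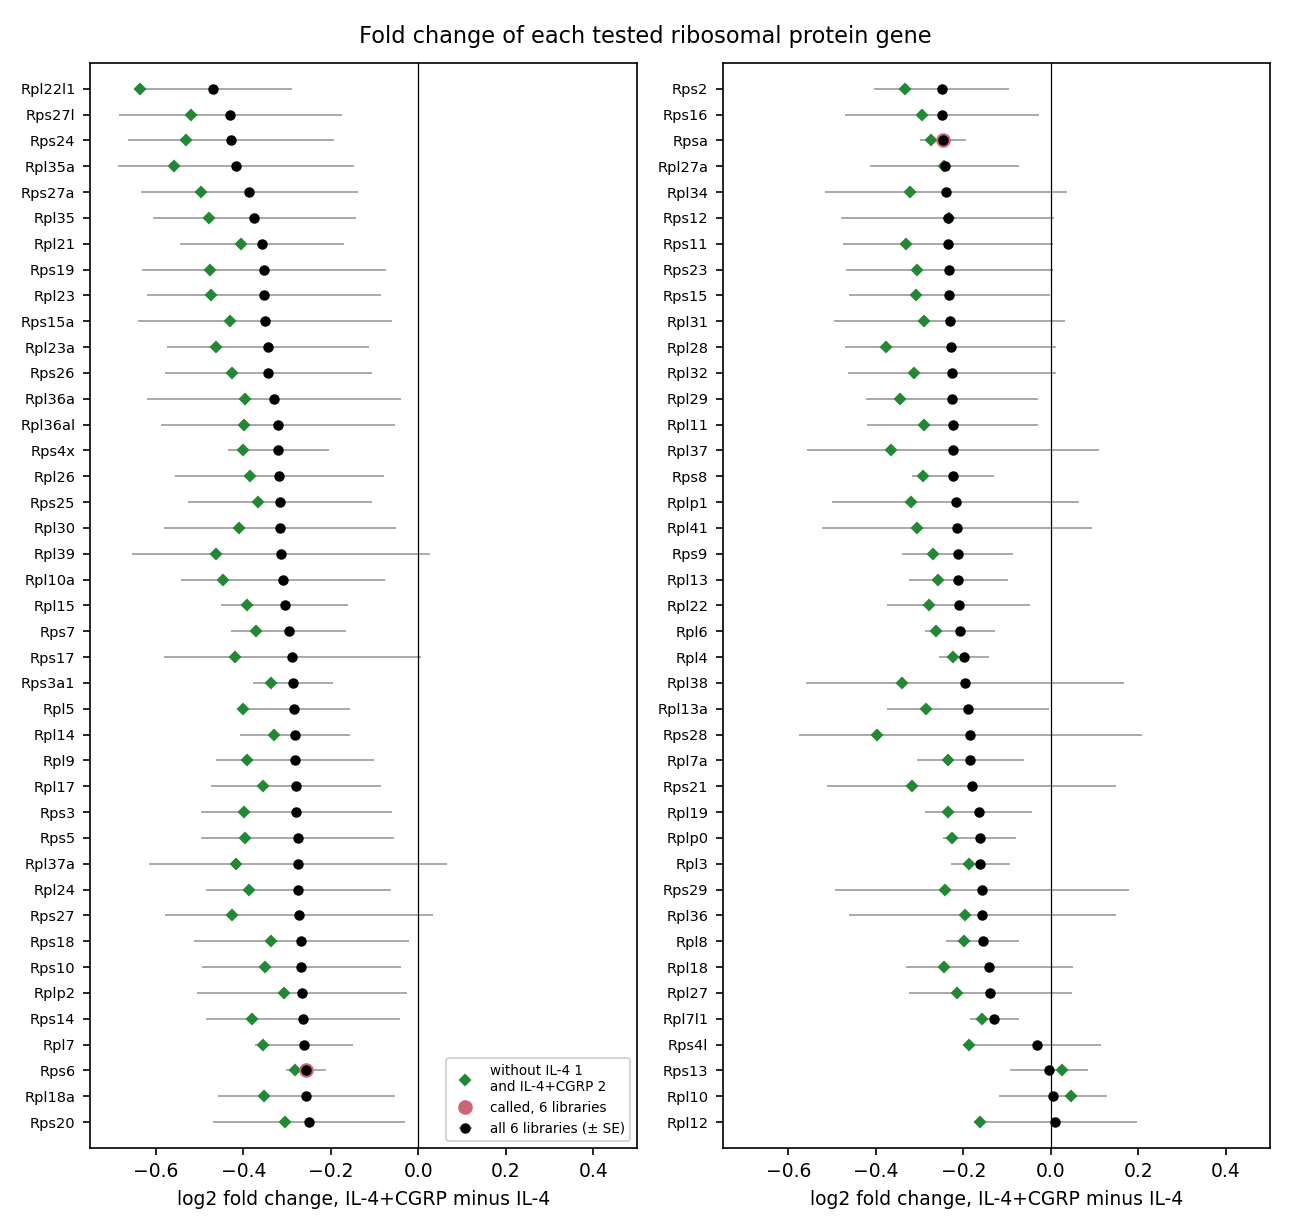
The log2 fold change (x axis) of 82 tested ribosomal protein genes (Rps12l1, with an SE above 1, is left out) is drawn as a black point with its SE for all 6 libraries and as a green diamond without IL-4 replicate 1 and IL-4+CGRP replicate 2. Larger red points mark Rps6 and Rpsa, whose SEs of 0.047 and 0.053 are short beside the median SE of 0.22.

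Without IL-4+CGRP replicate 2 alone, 27 of 83 members were called lower (against 7.04% of all tested genes) and the median log2 fold change was -0.47. That library was the highest of its group for 82 of the 83, so leaving it out lowers the group's mean by construction. Without IL-4 replicate 1 alone, 1 member was called (Rps6, against 0.729% of tested genes called lower), with a median of -0.12. Without both, 76 of 82 tested members were called lower (against 8.88%), with a median of -0.34 and a median SE of 0.044. This pair was picked from an earlier look at these data and holds the highest library of each group for nearly every member, so removing it narrows the spread by construction and the count is a description of the remaining 4 libraries.

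Among small subunit proteins, Rps6 (ENSMUSG00000028495), the protein that S6 kinases phosphorylate downstream of mTORC1, was at 315, 319.7 and 315 CPM in the IL-4 libraries (replicates 1 to 3, an order kept below) and at 268, 273 and 255 CPM in the IL-4+CGRP libraries. The groups did not overlap, and each was tight. The level was 1.195-fold lower with IL-4+CGRP (log2 fold change -0.26 ± 0.047 SE, adjusted p = 0.00901 by edgeR). Rpsa (ENSMUSG00000032518), a 40S protein also known as the laminin receptor precursor, was at 430, 413 and 408 CPM with IL-4 and at 344, 375 and 334 CPM with IL-4+CGRP. Again every IL-4+CGRP library lay below every IL-4 library. Rpsa was 1.19-fold lower (log2 fold change -0.25 ± 0.053 SE, adjusted p = 0.0223 by edgeR). Over the 25 alternative analyses the adjusted p ranged from 2.4e-06 to 0.449 for Rps6 and from 1.5e-06 to 0.132 for Rpsa, and both stayed below 0 in log2 fold change. The call of Rpsa ended when any 1 library other than IL-4+CGRP replicate 2 was left out (adjusted p of 0.0991 to 0.132), and that of Rps6 when replicate 2 or 3 of IL-4, or replicate 1 or 3 of IL-4+CGRP, was left out (0.0534 to 0.0728).

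Rps3a1, a 40S protein that lies near the mRNA exit site, was at 410, 380.2 and 356 CPM with IL-4 and at 302, 358 and 282 CPM with IL-4+CGRP (log2 fold change -0.29 ± 0.091 SE, adjusted p above the threshold by edgeR and below it by DESeq2). The groups overlapped in 1 library, IL-4+CGRP replicate 2. Rps4x, the X-linked S4 protein, was at 425, 379.7 and 382 CPM and at 299, 374 and 278 CPM, with no overlap (log2 fold change -0.32 ± 0.11 SE), and it too was called by DESeq2 and not by edgeR. Rps2, which sits by the mRNA entry channel, was at 579, 507 and 479.8 CPM against 394, 534 and 389.5 CPM. Rps19, mutated in Diamond-Blackfan anaemia, was at 166, 119 and 124 CPM against 89.7, 145 and 84.9 CPM. In Rps2 and Rps19, IL-4+CGRP replicate 2 lay above IL-4 replicates 2 and 3, and their log2 fold changes of -0.25 ± 0.15 and -0.35 ± 0.28 (SE) did not pass.

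Among large subunit proteins, Rpl4, which reaches into the peptide exit tunnel, was at 515, 498 and 470.1 CPM with IL-4 and at 423, 464 and 406 CPM with IL-4+CGRP. The groups did not overlap, but the change did not pass (log2 fold change -0.20 ± 0.057 SE). Rpl3, which lies next to the peptidyl transferase centre, was at 414, 398 and 363 CPM against 344, 382 and 325 CPM, and Rpl6, a protein of the subunit's surface, at 402, 377 and 361 CPM against 318, 372 and 298 CPM. Both overlapped in IL-4+CGRP replicate 2. Rpl7 was at 354, 325 and 322 CPM against 262, 329 and 244 CPM. The log2 fold changes of Rpl3, Rpl6 and Rpl7 were -0.16 ± 0.068, -0.21 ± 0.080 and -0.26 ± 0.11 (SE), and none passed.

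The stalk proteins, which bring elongation factors to the ribosome, include the 2 members with the highest levels per length, Rplp1 and Rplp0. Rplp0, the stalk base, was at 802, 736 and 734 CPM with IL-4 and at 627, 772 and 631 CPM with IL-4+CGRP. Rplp1 was at 458, 319.6 and 338 CPM against 262, 433 and 264 CPM, and Rplp2 at 151, 105 and 111 CPM against 86.7, 131 and 88.4 CPM. In all 3, IL-4+CGRP replicates 1 and 3 were lowest and the other group's range included IL-4+CGRP replicate 2. Their log2 fold changes were -0.16 ± 0.084, -0.22 ± 0.28 and -0.27 ± 0.24 (SE), and none passed.

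Rpl5 and Rpl11 form a particle with 5S rRNA that can bind MDM2 and so stabilise p53. Rpl11 was at 237, 188 and 182 CPM with IL-4 and at 151, 217 and 153 CPM with IL-4+CGRP (log2 fold change -0.22 ± 0.20 SE). The row named Rpl5 held few counts, at 13.5, 14.1 and 12.0 CPM against 10.5, 12.8 and 9.17 CPM (log2 fold change -0.28 ± 0.13 SE). Rpl38, required for normal axial patterning in mice, was at 69.1, 43.2 and 47.7 CPM against 35.3, 67.8 and 36.5 CPM, and Rpl41, the shortest ribosomal protein, at 328, 216 and 232 CPM against 183, 306 and 179 CPM. These 4 did not pass, and in Rpl11, Rpl38 and Rpl41 IL-4+CGRP replicate 2 exceeded IL-4 replicates 2 and 3. Without IL-4 replicate 1 the log2 fold change of Rpl38 was 0.031.

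The lower expressed paralogs were set beside their partners. Rpl22l1, whose mRNA is a known target of repression by Rpl22, had the lowest log2 fold change of the tested members, -0.47 ± 0.18 (SE), at 9.77, 7.84 and 8.80 CPM with IL-4 and 5.65, 8.403 and 5.03 CPM with IL-4+CGRP. Rpl22 itself was at 91.0, 78.0 and 71.2 CPM against 61.1, 84.6 and 61.8 CPM (-0.21 ± 0.16 SE). Rps27l, a p53 target, was at 63.9, 48.1 and 45.3 CPM against 32.3, 51.6 and 32.8 CPM (-0.43 ± 0.26 SE), and Rps27 at 98.4, 68.0 and 75.2 CPM against 55.7, 93.3 and 50.9 CPM (-0.27 ± 0.31 SE). None of the 4 passed, and in each IL-4+CGRP replicate 2 reached the IL-4 range.

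Rpl7l1, a paralog of Rpl7, is counted with the large subunit only by its name. It was at 95.4, 94.5 and 93.0 CPM with IL-4 and at 86.7, 90.8 and 81.2 CPM with IL-4+CGRP, without overlap (log2 fold change -0.13 ± 0.056 SE, not called). Rpl36al was at 78.4, 54.5 and 57.3 CPM against 43.8, 67.4 and 41.0 CPM beside Rpl36a at 52.4, 35.0 and 35.9 CPM against 26.7, 44.2 and 27.3 CPM. Rps4l differed least, at 4.35, 4.98 and 4.55 CPM against 4.33, 5.23 and 4.01 CPM (-0.03 ± 0.15 SE). Rps12l1 was near the limit of detection, at 0.992, 0.133 and 0 CPM against 0.571, 0.730 and 0 CPM (0.27 ± 1.44 SE), while Rps12 was at 223, 149 and 157 CPM against 130.0, 188 and 131 CPM (-0.24 ± 0.24 SE). Rpl39 was at 90.8, 56.7 and 68.5 CPM against 45.5, 82.7 and 45.6 CPM (-0.31 ± 0.34 SE). The differences between paralogs were not tested.

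The 7 members left out by the filter are paralogs with few counts. Rps3a3 and Rpl32l had 0 counts in every library. Rpl3l, a striated muscle paralog, had 2, 0 and 0 counts with IL-4 and 1, 0 and 3 with IL-4+CGRP. Rpl39l had 1, 4 and 3 counts against 6, 3 and 0. Rpl10l, a testis paralog, had 1 count in IL-4 replicate 1 and 0 elsewhere, Rpl6l had 1.31 estimated counts in IL-4 replicate 3 and 0 elsewhere, and Rps3a2 had at most 3.18. At this depth no difference in these genes is detectable.

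Per length, the levels of the family spanned a wide range. Counts were divided by the length column and scaled to the same sum in every library (TPM), a scale that allows for gene length. The lengths are per gene and may differ from those of the mRNAs present, as Rps15a at 5130 bases and 53.6 TPM may show. Levels and ranks between genes are therefore approximate. Over the 6 libraries the highest members were Rplp1 at 1558 TPM, Rplp0 at 1193 TPM and Rps2 at 1126 TPM. Rplp1 was at 1647 ± 284 TPM with IL-4 and 1469 ± 375 TPM with IL-4+CGRP, Rplp0 at 1236 ± 26.8 and 1149 ± 85.1 TPM, and Rps2 at 1202 ± 82.5 and 1050.0 ± 145 TPM (SD, n = 3 each). These neighbours do not differ beyond their spread with IL-4+CGRP. Among the tested members, the lowest were Rps12l1 at 2.25 TPM, Rps4l at 7.76 TPM and Rpl5 at 13.3 TPM. With IL-4, Rpl5 (14.3 ± 1.13 TPM) and Rps4l (7.70 ± 0.688 TPM) differed beyond their spread.

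**Figure D3:**
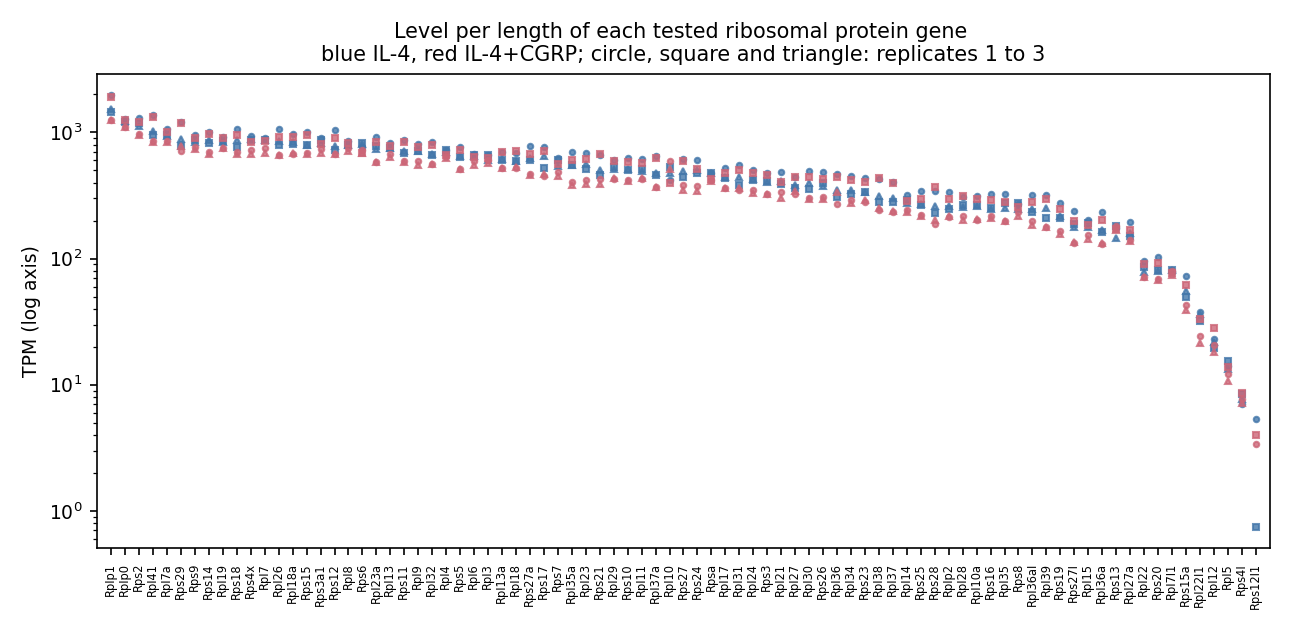
The level per length (TPM, log y axis) of each tested ribosomal protein gene (x axis, ordered by its mean) is drawn for each library, blue for IL-4 and red for IL-4+CGRP. The mean over libraries falls from 1558 TPM in Rplp1 to 2.25 TPM in Rps12l1, whose values of 0 in IL-4 replicate 3 and IL-4+CGRP replicate 3 cannot be drawn on a log axis. The lengths used are per gene and may differ from those of the mRNAs present.

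Some members, among them low rows such as Rpl5, have further rows with a matching pseudogene name or protein annotation, called copies below. The sequences of these rows were not compared. The table holds 321 rows named as a pseudogene of a member, 92 of them with counts, and 1530 further rows whose protein annotation names a cytosolic ribosomal protein, 214 of them with counts. When these are added to the member they match, 95.5% of the counts of Rpl5 lie in a single unnamed gene (ENSMUSG00000121777) and 93.4% of those of Rpl12 outside its own row, nearly all in another (ENSMUSG00000121784). The share outside the own row was 67.7% for Rpl10, 59.4% for Rpl27a, 56.6% for Rps13, 40.8% for Rps23 and 6.05% for Rps6. Values of these rows are uncertain, since how reads were divided among rows is not given in the sources used here.

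The members with own rows nearest to 0 include 3 of these. Rpl10, which joins the large subunit at a late step of its assembly, was at 155, 189.6 and 168 CPM with IL-4 and at 197, 146 and 171 CPM with IL-4+CGRP in its own row (log2 fold change 0.005 ± 0.12 SE). Its copy Rpl10-ps3 was at 484, 376 and 386 CPM against 255, 419 and 266 CPM, and the sum of copies at 639, 565 and 555 CPM against 453, 565 and 438 CPM. On the sum, the log2 fold change was -0.27 ± 0.11 (SE, adjusted p = 0.305 by edgeR), and the libraries took the order of the other members. Rpl12, part of the stalk base, was at 13.3, 10.9 and 11.9 CPM against 10.7, 16.0 and 9.60 CPM in its own row (0.01 ± 0.19 SE), and at 238, 193 and 183 CPM against 145, 207 and 138 CPM on the sum (-0.33 ± 0.20 SE). Rps13, named after its values were seen, was at 48.0, 47.2 and 37.8 CPM against 44.4, 46.3 and 41.6 CPM in its own row (-0.004 ± 0.090 SE), and at 129, 107 and 99.7 CPM against 80.6, 123 and 75.7 CPM on the sum (-0.27 ± 0.23 SE).

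The tight groups of Rps6 changed in the same way. Its pseudogene Rps6-ps4 held 980, 55.4 and 256 estimated counts with IL-4 and 0, 1100 and 35.0 with IL-4+CGRP, so that it was highest in IL-4 replicate 1 and IL-4+CGRP replicate 2. The sum of Rps6 and its copies was 365, 323 and 326 CPM with IL-4 and 268, 324 and 257 CPM with IL-4+CGRP. IL-4+CGRP replicate 2 then lay within the IL-4 range, and the change no longer passed (log2 fold change -0.26 ± 0.092 SE, adjusted p = 0.217 by edgeR, in a range of 2.4e-06 to 0.449 over the alternatives). Rpsa kept its call on the sum (adjusted p = 0.0222 by edgeR, in a range of 1.5e-06 to 0.132). With copies added, 82 of 83 members were below 0, with a median of -0.26, and 1 was called lower (against 1.53% of all genes tested that way).

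**Figure D4:**
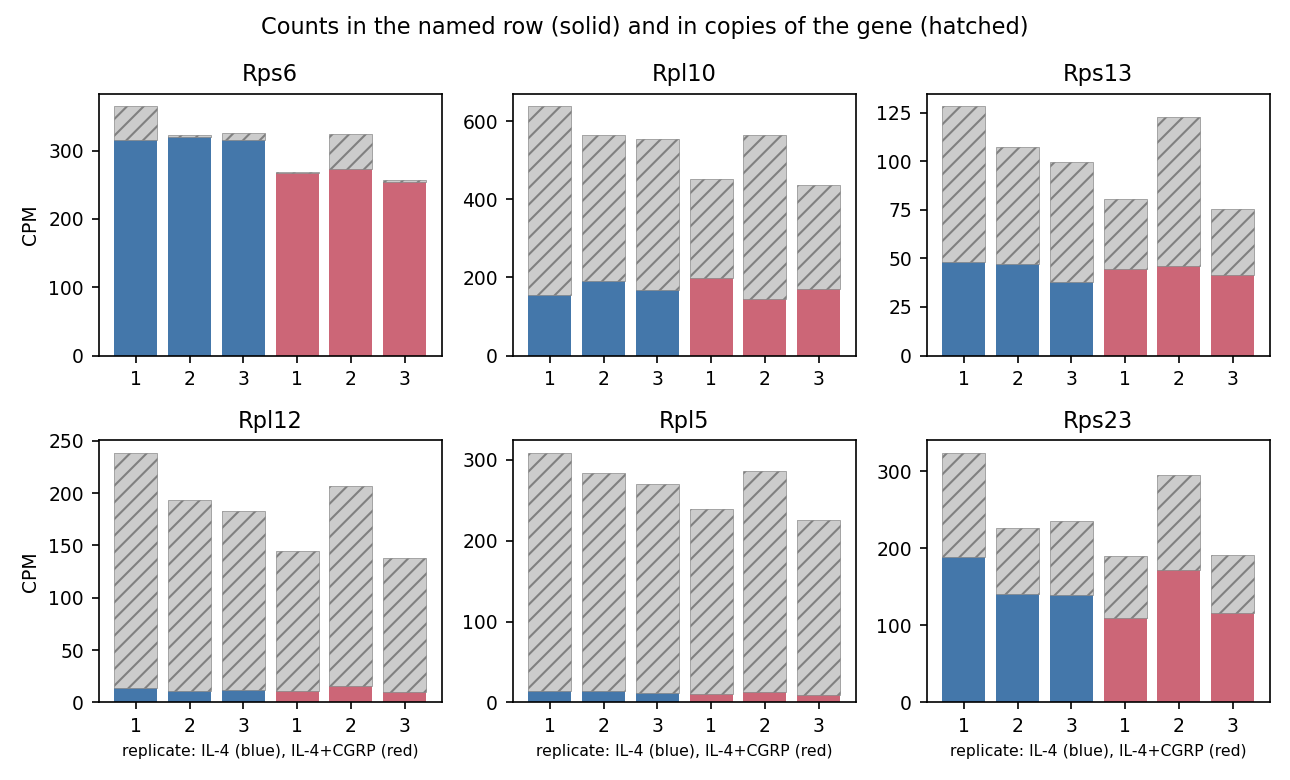
CPM (y axis) in each library (x axis) of 6 members, solid for the row that bears the member's name and hatched for its pseudogenes and same-protein rows. In Rpl10 and Rps13 the own rows are nearly level between groups while the hatched parts are high in IL-4 replicate 1 and IL-4+CGRP replicate 2, and in Rps6 the hatched part brings IL-4+CGRP replicate 2 to 324 CPM, within the IL-4 range.

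The length column was used as a check, since the members are short: their median length was 799 bases (345 to 5130), against 2756.5 over all tested genes. Among genes that are not members, the median log2 fold change was -0.06 under 500 bases, -0.10 from 500 to 1000, -0.04 from 1000 to 2000, 0 from 2000 to 4000 and 0.04 over 4000. Members of the same classes lay lower, at -0.20 (11 members), -0.26 (47), -0.25 (20), -0.23 (4) and -0.35 (1, Rps15a). The column gives a length per gene, which may differ from that of the mRNA present. Whether members of the longer classes have shorter mRNAs in these cells was not tested. Across the 83 members, which share the same libraries, the log2 fold change and log2 length had Pearson's r of -0.095 and Spearman's rho of -0.054. The SE was larger in shorter members (rho of -0.592).

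When each library's trend on length, fitted on genes that are not members, was taken out, the members' median log2 fold change was -0.16, and 13 members were called lower (against 2.96% of all tested genes). The 13 were Rpsa, Rps3a1, Rps4x, Rps7, Rps27a, Rps27l, Rpl4, Rpl6, Rpl7, Rpl9, Rpl14, Rpl23a and Rpl35a. Rps6 was no longer among them (log2 fold change -0.16 ± 0.083 SE, adjusted p = 0.374 by edgeR, in a range of 2.4e-06 to 0.449 over the alternatives). Rpsa was (-0.23, adjusted p = 0.00163, in a range of 1.5e-06 to 0.132). With the trend removed and without IL-4+CGRP replicate 2, 49 of 83 were called lower (against 6.97%), with a median of -0.24, and without both libraries of the pair 64 of 82 (against 7.05%), with a median of -0.20. The part of the short-gene pattern in the members' order of libraries was not tested beyond this.

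**Figure D5:**
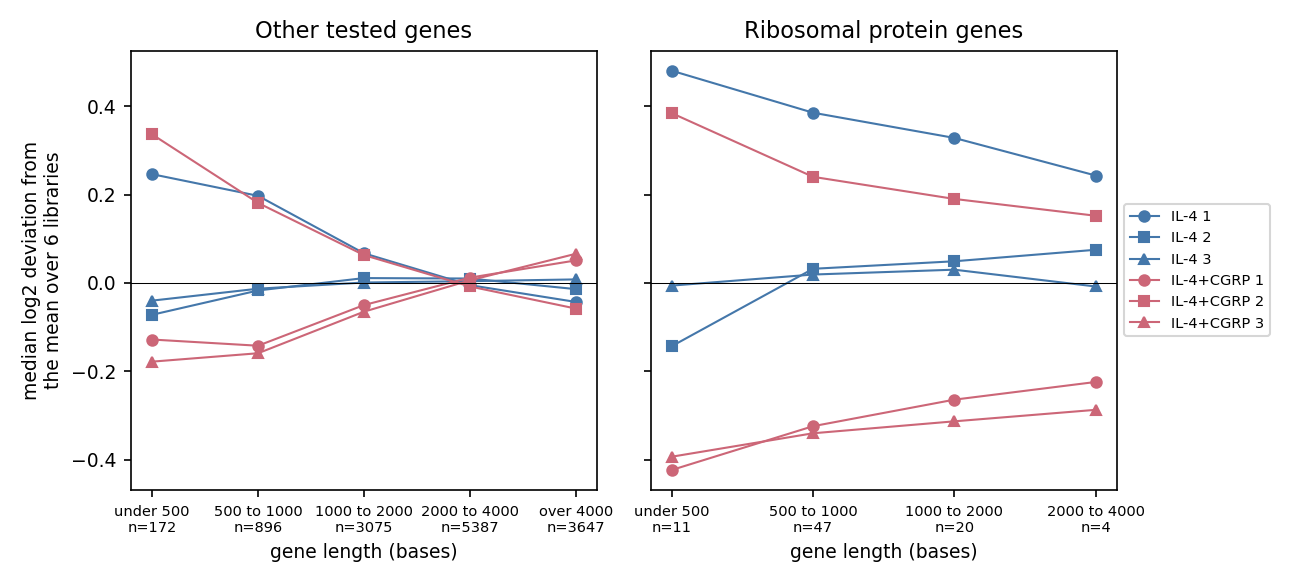
The median log2 deviation from the mean over the 6 libraries (y axis) by class of gene length in bases (x axis), for tested genes that are not members (left) and for ribosomal protein genes (right, classes with at least 4 members), 1 line per library. Short genes of both kinds are high in IL-4 replicate 1 and IL-4+CGRP replicate 2. The ribosomal protein genes stay apart by library from 2000 to 4000 bases (4 members), where the other genes lie near 0. Lengths are per gene and may differ from those of the mRNAs present.

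Outside the name rule, the ribosomal proteins with the smallest p were Rack1 and Fau. Rack1, a scaffold on the 40S head, was at 573, 508 and 513 CPM with IL-4 and at 418, 520.1 and 419 CPM with IL-4+CGRP (log2 fold change -0.23 ± 0.094 SE), and Fau, made as a fusion with a ubiquitin-like protein, at 236, 175 and 182 CPM against 154, 228 and 149 CPM (-0.16 ± 0.23 SE). Neither passed the test.

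Few translation factors and other TOP mRNAs were called, and the 4 that were had lower levels with IL-4+CGRP. Over all tested genes, 1.54% were called lower and 2.32% higher. Of 11 tested translation elongation factors, 0 rose and 1 fell: Eef1a1, which delivers aminoacyl-tRNA, was at 5754, 5802 and 5588 CPM with IL-4 and 5082, 5323 and 4876 CPM with IL-4+CGRP (log2 fold change -0.17 ± 0.039 SE, adjusted p = 0.0366 by edgeR). Of 38 initiation factors, 0 rose and 1 fell: the helicase gene Eif4a1 was at 663, 645 and 644 CPM against 557, 597 and 544 CPM (-0.20 ± 0.047 SE, adjusted p = 0.035 by edgeR). Of 11 other TOP mRNAs, 0 rose and 2 fell. The intermediate filament gene Vim was at 1433, 1434 and 1404 CPM against 1140, 1244 and 1150 CPM (-0.27 ± 0.043 SE, adjusted p = 0.00403 by edgeR), and the histone chaperone gene Nap1l1 at 84.3, 80.8 and 84.9 CPM against 70.1, 67.3 and 67.8 CPM (-0.29 ± 0.052 SE, adjusted p = 0.00893 by edgeR). None of these 4 genes overlapped between the groups. Every IL-4+CGRP library lay below every IL-4 library for 5 of the 11 elongation factors, 9 of the 38 initiation factors and 4 of the 11 other TOP mRNAs, against 9.90% of all tested genes. The calls of Eef1a1 and Eif4a1 ended with scaling by library totals alone (adjusted p = 0.0787 and 0.067 by edgeR) and by DESeq2 (0.143 and 0.0542), and when any 1 library other than IL-4+CGRP replicate 2 was left out (0.132 to 0.188 for Eef1a1, 0.14 to 0.182 for Eif4a1). The call of Eef1a1 also ended with upper quartile scaling (0.0581), and that of Eif4a1 with a dispersion fit that was not robust (0.0571). Nap1l1 lost its call without IL-4 replicate 1 (0.0659) or 3 (0.0622), and Vim kept its call in every alternative run. Without IL-4+CGRP replicate 2, 6, 12 and 7 genes of the 3 lists were called lower (against 7.04% of all tested genes), which describes only the libraries that remain. The medians of the 3 lists were -0.17, -0.09 and -0.14.

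Of 94 tested ribosome assembly factors, 0 were called in either direction (against 1.54% of all tested genes lower and 2.32% higher), and the median log2 fold change was -0.06. By unadjusted p the first were Nop56, a core protein of box C/D small nucleolar particles, at 55.8, 61.0 and 57.3 CPM against 52.0, 52.0 and 51.2 CPM (-0.17 ± 0.057 SE), and Brix1, a factor of large subunit assembly, at 22.9, 19.3 and 21.9 CPM against 16.6, 19.6 and 16.1 CPM (-0.29 ± 0.10 SE). Of 31 genes of the mTORC1 pathway and of TOP mRNA control, 1 rose and 0 fell, beside the same shares over all tested genes. Rragd, a Rag GTPase that brings mTORC1 to the lysosome, was at 39.4, 44.5 and 40.5 CPM against 52.3, 50.2 and 49.7 CPM (log2 fold change 0.29 ± 0.064 SE, adjusted p = 0.0276 by edgeR). Of 10 tested MYC network genes, 1 rose and 0 fell: Mxd1, a partner of MAX that opposes MYC, was at 35.7, 34.9 and 33.3 CPM against 44.0, 40.5 and 41.0 CPM (0.27 ± 0.065 SE, adjusted p = 0.039 by edgeR). Leaving out replicate 1 or 3 of either group ended the call of Rragd (adjusted p of 0.0746 to 0.166), and leaving out any 1 library other than IL-4+CGRP replicate 2 ended that of Mxd1 (0.0913 to 0.218), as did DESeq2 (0.0791). Without IL-4+CGRP replicate 2, the mTORC1 list had 4 genes called higher and 2 lower, and the MYC list 3 higher and 0 lower. In that setting 6.78% of all tested genes were called higher and 7.04% lower, and the counts describe only the libraries that remain. None of 19 genes of ribosomal protein quality control was called; by unadjusted p the first were the ribosome rescue factor gene Pelo (0.17 ± 0.11 SE) and Nufip1 (0.12 ± 0.093 SE), known as a receptor for ribosome autophagy. None of 15 tested snoRNA host genes was called either, with a median of -0.006, and Snhg6 (-0.44 ± 0.21 SE) and Snhg1 (-0.24 ± 0.12 SE) came first.

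The other large gene families compared also lay mostly below 0. The median length of their tested genes was 723 bases for oxidative phosphorylation, 1316 for mitochondrial ribosomal proteins and 1512 for the proteasome. It was 799 for the cytosolic ribosomal proteins. Of 81 nuclear subunits of oxidative phosphorylation, 0 were called (against 1.54% of all tested genes lower and 2.32% higher) and 77 were below 0, with a median of -0.20. Of 79 mitochondrial ribosomal proteins, 0 were called and 67 were below 0, with a median of -0.09, and of 39 proteasome subunits 0 were called and 37 were below 0, with a median of -0.14. Without IL-4+CGRP replicate 2, 35 of 81, 15 of 79 and 23 of 39 genes of these families were called lower, beside 27 of 83 cytosolic ribosomal proteins and 7.04% of all tested genes. Without the pair of libraries, the counts were 59 of 81, 13 of 79 and 25 of 39, beside 76 of 82 and 8.88% of all tested genes. The libraries left out are high in short genes, so these counts describe only the libraries that remain. With the length trend removed, their medians were -0.10, -0.04 and -0.09, beside -0.16. Of 6 tested nuclear retained RNAs, 0 were called and 0 were below 0. The first by unadjusted p were Malat1, at 296, 311 and 300.1 CPM against 336, 312 and 395 CPM (0.20 ± 0.078 SE), and Kcnq1ot1 (0.29 ± 0.12 SE). Whether the cytosolic family differs from these families was not tested.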

How the data were processed

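mRNA was sequenced from 6 libraries, 3 per group. Per the labels' protocols, RNA was extracted with TRIzol, had a quality number of at least 6.5, and 1 µg entered a stranded mRNA kit. The labels are ambiguous on the CGRP concentration, which is left out. Per the submitters' processing notes, fastp, HISAT2, StringTie and GRCm39 were used. Not given in the sources used here are their versions, the annotation, and how reads were counted and on which strand, so overlapping and antisense genes cannot be told apart. The authors deposited estimated counts (expected counts) per gene and library, made from the aligned reads: 23.3% to 26.6% of the values above 0 in a library are not whole (tolerance 1e-06), and all were rounded before testing. The deposited gene length column was used as given.

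Genes were filtered with filterByExpr by group (13260 of 57180 kept, with 99.91% of counts), scaled with TMM and tested with edgeR 4.0.16 in R 4.3.3 (quasi-likelihood, robust, two-sided, without covariates), with limma 3.58.1 and DESeq2 1.42.0 for alternatives. P-values were adjusted over all tested genes by Benjamini-Hochberg, with a threshold of 0.05. CPM are counts over TMM-scaled totals, TPM are counts per length scaled to the same sum over all genes, and the SE is the log2 fold change over the square root of F. The length trend was a lowess fit (span 0.3) of each library's log2 CPM deviation on log2 length over genes that are not members. Replicates differed beyond counting noise in each pair (chi-square over degrees of freedom from 3.01 to 22), so none was counted as a repeat. The scripts were tested on simulated data. The members, lists and alternatives were chosen with earlier results of these data known. Named genes are the 6 members with the smallest p in each direction (3 were above 0), paralogs and partners. They also include 11 members of known role and the 3 highest and 3 lowest tested members by TPM. From each list, up to 4 called genes or the 2 with the smallest p are named. Against this rule, no gene is named by p from the marker lists without a call. In the companion lists, 1 gene is not reported here.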

Additional observations from a re-analysis of the deposited data

How the results depend on the processing

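Under all alternatives run, 0 members were called higher and the members' median log2 fold change stayed below 0. The number called lower was 2 as reported (against 1.54% of all tested genes). It was 12 with no filter on low counts (against 1.83%), 4 by DESeq2 (1.37%) and 13 with the length trend removed (2.96%). It was 1 with pseudogene counts added (1.53%), and 1 with same-protein rows added as well (1.53%). Without IL-4 replicate 1 and IL-4+CGRP replicate 2 it was 76 (against 8.88%), and 64 (7.05%) with the length trend removed too. With the trend removed and only IL-4+CGRP replicate 2 left out it was 49 (6.97%). With copies added and that library left out it was 28 (7.17%). The last 3 of these settings, and the same-protein rows, were chosen after seeing the data. Leaving out 1 library at a time gave 0 to 27 called lower, and medians of -0.47 to -0.12. The 27 were reached without IL-4+CGRP replicate 2 (against 7.04% of all tested genes). It was 1 or 0 otherwise, against 0.592% to 0.885% of all tested genes. The causes of these shifts were not tested. The alternative scalings called 2 each, and moved the median of all genes by less than 0.1.

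Same-numbered libraries did not all deviate together (correlations of -0.19, -0.18 and 0.13 over all genes, and of 0.37, -0.81 and 0.93 over the members), and the labels do not tie a number to a culture. A replicate block gave 0 members called lower (0.649% of all genes), with Rps6 at an adjusted p of 0.0617 and Rpsa at 0.0922 and a median of -0.26, and the block with the length trend removed gave 6 (1.64%). The block also ended the calls of Eef1a1 (0.116), Eif4a1 (0.134), Rragd (0.0983) and Mxd1 (0.102). Of 747 values of the 30 named members over the alternatives, 600 stayed on the same side of the threshold and of 0, 104 passed where they had not, 16 no longer passed (Rps6 and Rpsa) and 27 changed sign, in Rpl10, Rpl12, Rpl38, Rps4l and Rps12l1. Rpl12 turned to -0.022 by limma-voom, -0.016 with the block, -0.33 with same-protein rows, -0.16 without the pair, -0.11 with the trend removed and IL-4+CGRP replicate 2 left out, -0.066 without the pair and the trend, and -0.54 with copies added without IL-4+CGRP replicate 2. Rpl10 turned to -0.0009 with the block, -0.27 with pseudogenes or with all copies, and -0.40 with copies added without IL-4+CGRP replicate 2. Rps4l turned to 0.021 with the length trend removed, with or without the block, and Rps12l1 to -0.28 with copies added without IL-4+CGRP replicate 2. Leaving out 1 library at a time, Rpl10 ranged from -0.12 to 0.11, Rpl12 from -0.24 to 0.15, Rps4l from -0.15 to 0.041, Rps12l1 from -0.37 to 2.62 and Rpl38 from -0.57 to 0.031. Precision is limited by 3 libraries a group, and how the reads of copies were divided among rows is not given in the sources used here.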
